A study of Mus musculus with 8 samples.

Results

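Genes of the heterogeneous nuclear ribonucleoproteins (hnRNP) and of the SR splicing factors were followed through RNA immunoprecipitations of the germ cell protein DAZL. The set holds every non-control probe whose gene name on the array begins with Hnrp or Hnrnp, or with Sfrs or Srsf and a digit. This took 84 of the 41174 gene probes of the array and 36 of its 27676 genes. The hnRNP names covered 45 probes of 20 genes, and the SR names 39 probes of 16 genes. Of these, 80 probes and 35 genes were measured above background and tested (43 probes of 19 hnRNP genes and 37 probes of 16 SR genes). Hnrnpul2 had 1 probe, which was not well above background on both arrays of any group, so it has no value here.

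Of the 16 SR genes, 9 now carry an Srsf symbol (Srsf1, Srsf2, Srsf3, Srsf4, Srsf5, Srsf6, Srsf7, Srsf9 and Srsf11). The other 7 have since been given other symbols: Tra2b (Sfrs10 on the array), Srek1 (Sfrs12), Sugp2 (Sfrs14), Scaf4 (Sfrs15), Clasrp (Sfrs16), Scaf11 (Sfrs2ip) and Sfswap (Sfrs8). The name rule thus joins classical SR proteins with other proteins that once shared their names, and both kinds are described apart below.

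hnRNP proteins coat nascent transcripts and take part in splicing, export, stability and translation of mRNA, and many of them repress the use of exons or splice sites they bind near. SR proteins carry RNA recognition motifs and a tail rich in arginine and serine, bind exonic enhancers and, in general, promote inclusion of the exon. Many genes of both families are known to regulate their own mRNAs through unproductive splicing, so the level of these mRNAs is itself under control of RNA-binding proteins. DAZL binds mRNAs of germ cells, mostly in their 3′ untranslated regions, and is known to regulate their translation.

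The cells were primordial germ cells (PGCs) differentiated in culture for 12 days from V6.5 mouse ES cells of mixed C57BL/6 129SV strain. All 4 groups, the controls included, came from cells with Dazl-GFP-V5, a fusion of DAZL with GFP and the V5 peptide tag. RNA was recovered from lysates that had not been crosslinked with an antibody against V5 (V5 IP), with an antibody against GFP (GFP IP) or with normal mouse IgG (mock IP), and total RNA of the lysate served as input. A native immunoprecipitation (IP) does not separate RNA that DAZL holds directly from RNA held through other proteins. Each group had 2 one-colour arrays. The labels speak of independent experiments without saying which arrays they are, and it is not stated whether a group's arrays go back to separate cultures. The p-values therefore reflect the spread between these arrays alone, and that spread may be technical. Whether germ cells were separated from the other cells of the culture is not stated either.

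Between 61.3% and 70.5% of the gene probes were well above background on an array. In each group the array numbered 1 sat on slide 1 and the one numbered 2 on slide 2, so differences within a slide are given as well. For the 75th percentile of intensity, the 6 arrays of V5 IP, GFP IP and input had values of 641 to 1130, and the mock arrays 352 (mock 1) and 767 (mock 2). Dazl mRNA, which checks the labels, was higher than in mock IP by 2.63 on the log2 scale in V5 IP (limma, adjusted p = 0.005) and 2.71 in GFP IP (0.00394). Of 10 PGC marker genes 9 were measured, and all 9 were well above background on all 8 arrays; 4 were higher and 2 lower in each IP than in mock IP. Of 8 fibroblast and mesenchyme markers, 3 were lower in each IP than in mock IP, and 6 to 8 were well above background on each array. The log2 of their summed linear level was 2.99 and 2.70 in V5 IP, 2.85 and 2.65 in GFP IP, with 4.66 and 3.54 in mock IP, and 3.74 and 3.51 in input. Of 14 somatic lineage markers, 12 to 14 were well above background on each array; 1 was higher in each IP, and 3 were lower in V5 IP and 4 in GFP IP than in mock IP. The part of other cells in the results below was not tested.

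Each IP against mock IP compares the signal of each mRNA after an antibody to the tagged protein with that after normal IgG. Values are log2 intensities minus the 75th percentile of their own array, so they are relative to the other RNA on that array and are not amounts recovered. A difference from mock IP is one between recovered RNAs and does not measure how many cells hold an mRNA or how much each holds. In a mixed culture those 2 cannot be told apart in the input level either. Both IPs were set against the same 2 mock arrays, so their results are not independent of each other. By limma over 19031 genes, 12 of 19 hnRNP genes and 9 of 16 SR genes rose in V5 IP over mock IP, where 14.6% of all genes were. No hnRNP gene and 2 SR genes were lower, where 21.4% of all genes were. In GFP IP 13 hnRNP genes and 9 SR genes were higher, against 16.3% of all genes, and no hnRNP gene and 2 SR genes were lower, against 26.5%. A gene was called at an adjusted p under 0.05. The median log2 fold change was 1.67 for hnRNP genes, 1.43 for SR genes and -0.44 for all genes in V5 IP, and 1.79 for hnRNP genes, 1.43 for SR genes and -0.44 for all genes in GFP IP.

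The plot of both IPs against mock IP shows how wide each family spread. Within slides the hnRNP median was 1.91 on slide 1 and 1.22 on slide 2 in V5 IP, and 1.96 on slide 1 and 1.45 on slide 2 in GFP IP. The SR median was 1.82 on slide 1 and 1.03 on slide 2 in V5 IP, and 1.70 on slide 1 and 1.16 on slide 2 in GFP IP. The median of all genes was -0.53 on slide 1 and -0.34 on slide 2 in V5 IP, and -0.52 on slide 1 and -0.36 on slide 2 in GFP IP. These medians were larger in size on slide 1 than on slide 2 in both families and over all genes. The 21 higher calls in V5 IP became fewer without V5 1 or without mock 1, and the 22 in GFP IP became fewer without GFP 1. Every gene has fewer arrays in such a fit, and the share of all genes called in it is not given. The loss of calls is therefore not shown to be particular to these families. Of the calls in V5 IP 10 of 23 held whichever array was left out, and of those in GFP IP 14 of 24.

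**Figure D1:**
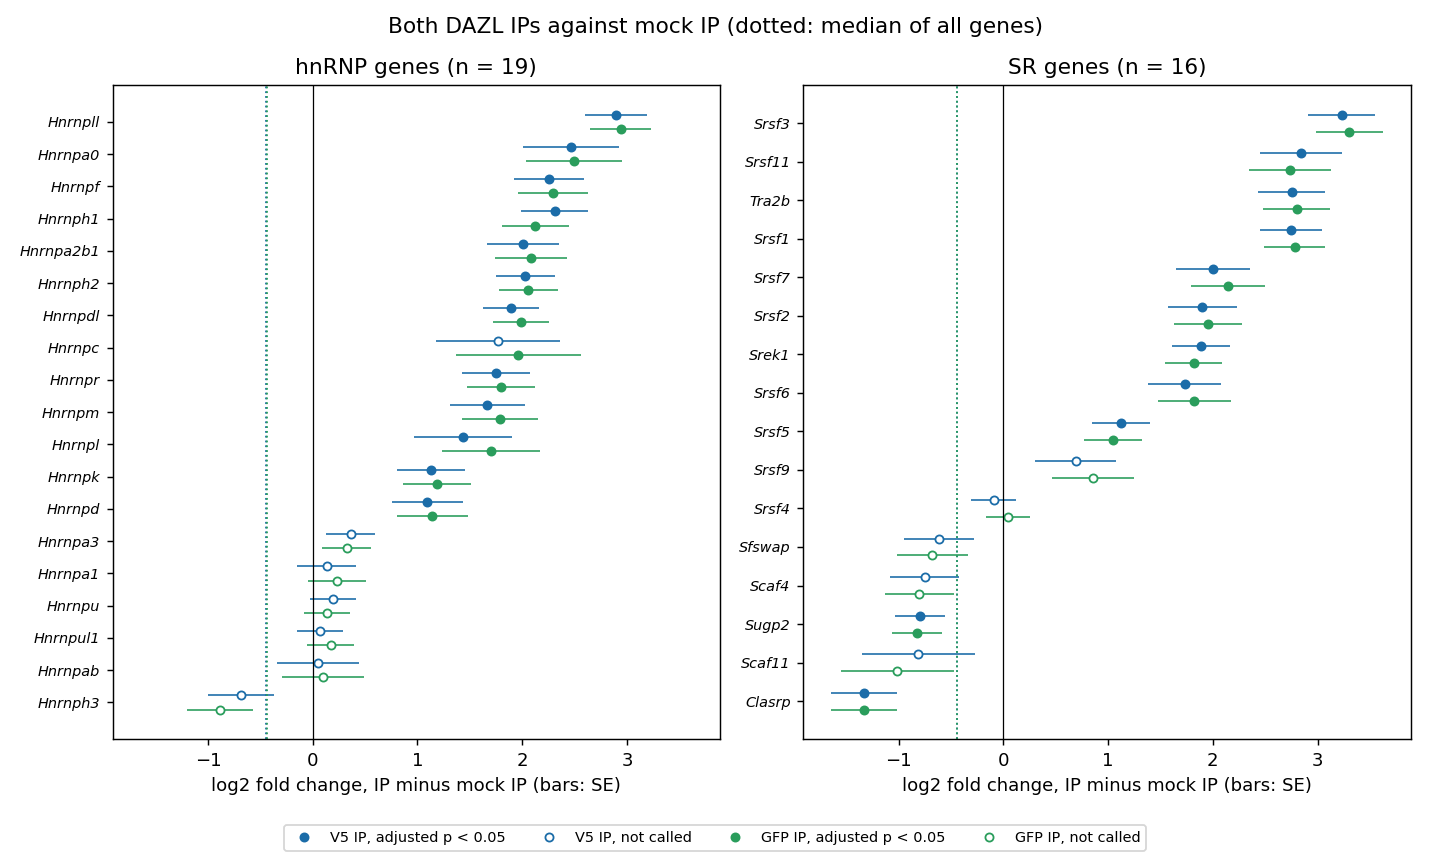
Log2 fold change of each tested hnRNP gene (left) and SR gene (right) in V5 IP (blue) and GFP IP (green) against mock IP, with the SE of the fit as bars, filled points for genes called at an adjusted p under 0.05, and dotted lines at the median of all genes (-0.44 for both). The hnRNP genes run between 2.89 (Hnrnpll) and -0.68 (Hnrnph3) in V5 IP, and the SR genes between 3.23 (Srsf3) and -1.33 (Clasrp).

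Among hnRNP genes, the highest mRNAs in the IPs came from several branches of the family. Genes with values on every array, here and for the SR family below, were picked by their difference from mock IP. That their IP and mock arrays lie apart is therefore no separate result. The share of all genes whose arrays do not overlap is not given. Hnrnpll encodes a relative of hnRNP L that is known for alternative splicing of Ptprc in T cells. Its normalized log2 signal was 4.54 and 3.99 in V5 IP, 4.44 and 4.17 in GFP IP, with 1.13 and 1.61 in mock IP, and 2.10 and 1.95 in input. All 4 IP arrays lay above both mock arrays and both input arrays. Hnrnpll rose 7.44-fold in V5 IP (log2 2.89, adjusted p = 0.00212) and in GFP IP 7.66-fold (log2 2.94, adjusted p = 0.00184), with an SE of 0.29 for each log2 value. Both calls held whichever array was left out.

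Hnrnpa0, an A/B type hnRNP that binds AU-rich elements of mRNAs, had a signal of 3.89 and 2.73 in V5 IP, 3.80 and 2.86 in GFP IP, with 1.11 and 0.57 in mock IP, and 0.89 and 1.01 in input. The IP arrays of slide 1 were the highest, and all IP arrays lay above all mock and input arrays. It rose 5.53-fold in V5 IP (log2 2.47, adjusted p = 0.0119) and in GFP IP 5.63-fold (log2 2.49, adjusted p = 0.00915), with an SE of 0.46 for each log2 value. The V5 call ended without V5 1 (adjusted p = 0.0548) or mock 1 (0.0615), and the GFP call without GFP 1 (0.0513).

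The F and H group binds runs of guanines in pre-mRNA and regulates the splicing of neighbouring exons. Hnrnpf had a signal of 8.51 and 7.73 in V5 IP, 8.47 and 7.84 in GFP IP, with 5.96 and 5.77 in mock IP, and 6.33 and 6.31 in input. It rose 4.77-fold in V5 IP (log2 2.25, adjusted p = 0.00521) and in GFP IP 4.9-fold (log2 2.29, adjusted p = 0.0043), with an SE of 0.34 for each log2 value. Hnrnph1 measured 5.77 and 5.18 in V5 IP, 5.42 and 5.15 in GFP IP, with 2.82 and 3.50 in mock IP, and 3.99 and 4.12 in input. It rose 4.96-fold in V5 IP (log2 2.31, adjusted p = 0.00408) and in GFP IP 4.36-fold (log2 2.13, adjusted p = 0.00475), with an SE of 0.32 for each log2 value. For Hnrnph2, the X-linked member, the signal was 4.46 and 4.00 in V5 IP, 4.36 and 4.16 in GFP IP, with 1.94 and 2.47 in mock IP, and 2.96 and 3.03 in input. It rose 4.08-fold in V5 IP (log2 2.03, adjusted p = 0.00408) and in GFP IP 4.16-fold (log2 2.06, adjusted p = 0.00348), with an SE of 0.28 for each log2 value. In all 3 genes the IP arrays lay above the mock and the input arrays without overlap, and the calls in both IPs held whichever array was left out.

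Hnrnph3, the fourth gene of this group measured, lay the other way. Its signal was -3.12 and -2.36 in V5 IP, -3.20 and -2.68 in GFP IP, with -2.01 and -2.11 in mock IP, and -1.70 and -1.63 in input, far under the 75th percentile of every array, though well above background on all 8. The IP arrays lay below both mock arrays. The difference from mock IP was -0.68 in V5 IP (adjusted p = 0.121) and -0.88 in GFP IP (0.0557), with an SE of 0.32, and did not pass. With the replicate number, which is also the slide, as a block it passed in both (adjusted p = 0.0499 in V5 IP, 0.0184 in GFP IP).

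Hnrnpa2b1, which encodes the A/B protein known for carrying mRNAs along dendrites, had a signal of 5.56 and 4.74 in V5 IP, 5.55 and 4.91 in GFP IP, with 3.20 and 3.09 in mock IP, and 4.05 and 3.93 in input. Again the IP arrays lay above all mock and input arrays. It rose 4.01-fold in V5 IP (log2 2.0, adjusted p = 0.00874) and in GFP IP 4.25-fold (log2 2.09, adjusted p = 0.00633), with an SE of 0.34 for each log2 value. Without mock 1 the V5 call ended (adjusted p = 0.0599).

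Of the other hnRNP genes, 7 were called in at least 1 IP. Hnrnpdl, a relative of hnRNP D, rose 3.72-fold (V5 IP) and 3.96-fold (GFP IP) over mock IP, and both calls held whichever array was left out. Hnrnpr, a relative of the mRNA-binding protein SYNCRIP, rose 3.36-fold (V5 IP) and 3.48-fold (GFP IP). Hnrnpm, a splicing regulator that binds GU-rich sequence, rose 3.18-fold (V5 IP) and 3.45-fold (GFP IP). Hnrnpl, which binds CA repeats, rose 2.71-fold (V5 IP, adjusted p = 0.048) and 3.25-fold (GFP IP, adjusted p = 0.025). The poly(C)-binding protein gene Hnrnpk rose 2.19-fold (V5 IP) and 2.28-fold (GFP IP), and Hnrnpd, whose product (AUF1) binds AU-rich elements and promotes mRNA decay, 2.14-fold (V5 IP) and 2.21-fold (GFP IP). Hnrnpc, whose product binds uridine tracts in introns, rose 3.9-fold in GFP IP (adjusted p = 0.0326), and its 3.41-fold difference in V5 IP did not pass (0.0511) but did with the replicate block (0.0052). Its arrays were spread wide, with an SD of 1.05 in V5 IP and 1.0 in GFP IP (n = 2 each).

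Several of these calls ended when 1 array was left out. Without V5 1 the V5 calls of Hnrnpr, Hnrnpm, Hnrnpl, Hnrnpk and Hnrnpd ended (adjusted p between 0.0663 and 0.207), and without mock 1 those of Hnrnpm, Hnrnpl, Hnrnpk and Hnrnpd (0.0727 to 0.131). Without mock 2, input 1 or input 2 the V5 calls of Hnrnpl, Hnrnpk and Hnrnpd ended (0.0681 to 0.202). Without GFP 1 the GFP calls of Hnrnpm, Hnrnpl, Hnrnpk, Hnrnpd and Hnrnpc ended (0.0704 to 0.178), and without mock 1 or mock 2 those of the last 4 (0.0521 to 0.135). Without input 1 or input 2 the GFP calls of Hnrnpd and Hnrnpc ended (0.0517 to 0.0595).

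The brightest probes of other hnRNP genes lay close to their mock level, while further probes of Hnrnpa3 and Hnrnpab, described with the other probes below, rose. Hnrnpa1, known as a repressor of exons and an antagonist of SR proteins, lay 0.13 above mock IP in V5 IP (adjusted p = 0.719) and 0.24 above it in GFP IP (0.512). Hnrnpa3, its close relative, lay 0.36 above it in V5 IP (0.243) and 0.33 in GFP IP (0.284). Neither passed.

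Hnrnpu, the scaffold attachment factor that binds chromatin-associated RNA, had a signal of 4.42 and 4.39 in V5 IP, 4.29 and 4.41 in GFP IP, with 4.11 and 4.31 in mock IP, and 5.40 and 5.36 in input. The V5 arrays lay just above both mock arrays, the GFP arrays overlapped them, and both input arrays stood above all others. Its difference from mock IP was 0.20 in V5 IP (adjusted p = 0.489) and 0.14 in GFP IP (0.622), with an SE of 0.22. Its other probe lay at 0.95 in V5 IP (adjusted p = 0.0654 over all probes) and 0.78 in GFP IP (0.104). Hnrnpul1, which encodes a relative of hnRNP U, measured 4.42 and 4.33 in V5 IP, 4.60 and 4.36 in GFP IP, with 4.37 and 4.24 in mock IP, and 3.99 and 4.12 in input, with overlap between each IP and mock IP. Its difference from mock IP was 0.07 in V5 IP (adjusted p = 0.815) and 0.17 in GFP IP (0.547). A further probe of Hnrnpul1 fell by 0.92 in GFP IP (adjusted p = 0.0383 over all probes) and lay at -0.76 in V5 IP (0.0742). Another lay at 0.11 in V5 IP and 0.05 in GFP IP.

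Hnrnpab, which encodes an A/B type protein that also binds CArG box DNA, had a signal of 7.63 and 6.79 in V5 IP, 7.65 and 6.87 in GFP IP, with 7.42 and 6.90 in mock IP, and 7.49 and 7.34 in input. The slide 1 array was higher than the slide 2 array in every group, and the groups overlapped. The difference from mock IP was 0.05 in V5 IP (adjusted p = 0.925) and 0.10 in GFP IP (0.852), with an SE of 0.39. Within slides it was 0.21 and -0.12 in V5 IP, so its sign differed between slides.

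**Figure D2:**
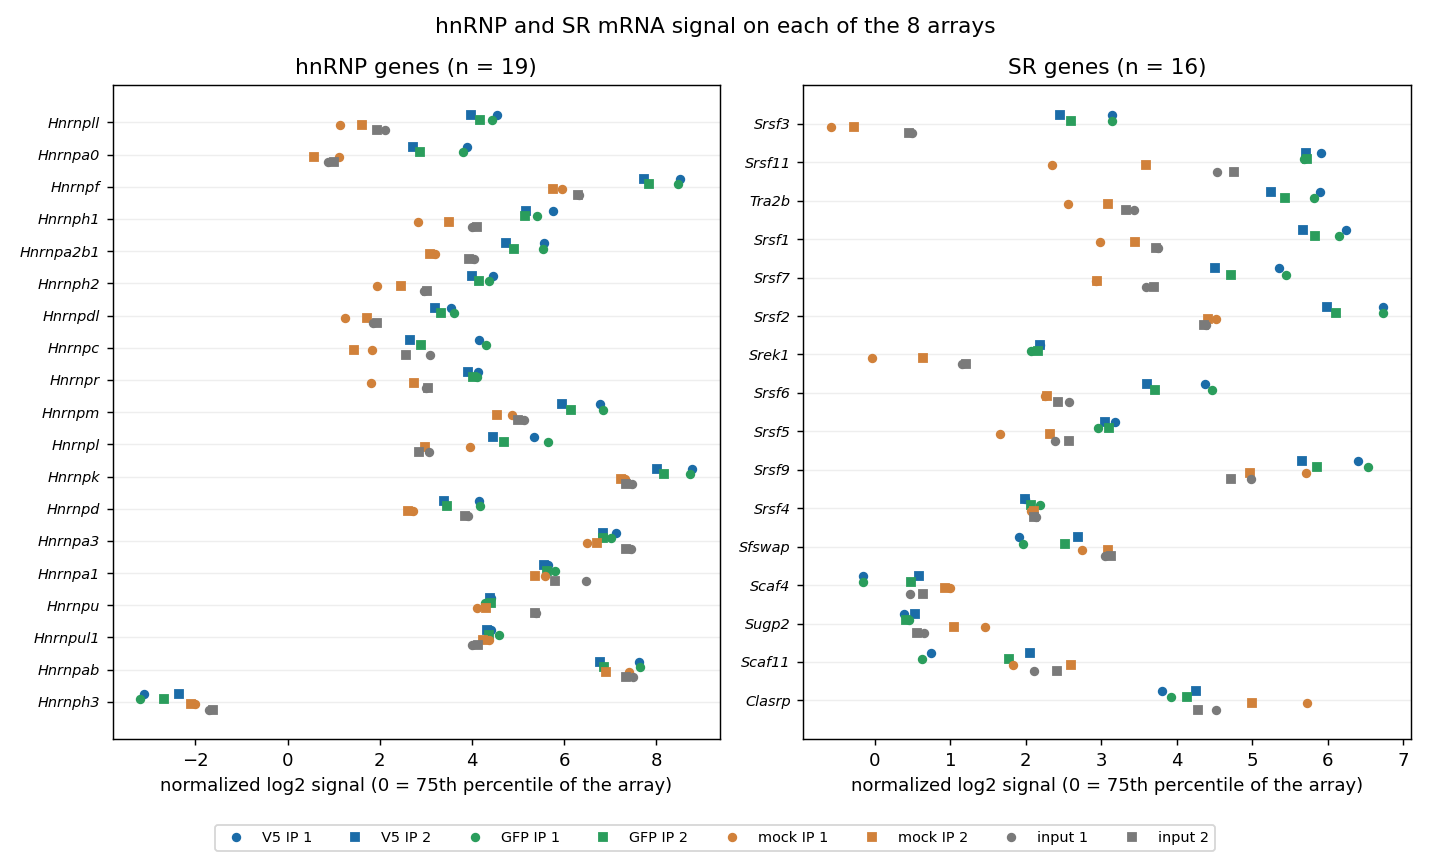
Normalized log2 signal of the probe standing for each gene on every array, with hnRNP genes on the left and SR genes on the right, circles for replicate 1 (slide 1) and squares for replicate 2 (slide 2). For Srsf3 all 4 IP arrays lie between 2.45 and 3.15, above both mock arrays and both input arrays, while for Clasrp both mock arrays lie above all others. Levels of different genes come from different probes and are not comparable.

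The classical SR genes were higher in the IPs with 2 exceptions. Of the 9 genes with an Srsf symbol 7 rose and none fell in each IP against mock IP, with a median of 1.90 in V5 IP and 1.95 in GFP IP. Srsf3 encodes the smallest SR protein, which acts in splicing and in mRNA export. Its signal was 3.15 and 2.45 in V5 IP, 3.14 and 2.60 in GFP IP, with -0.58 and -0.28 in mock IP, and 0.49 and 0.45 in input. All IP arrays lay above all mock and input arrays, and the mock arrays were the lowest. Srsf3 rose 9.37-fold in V5 IP (log2 3.23, adjusted p = 0.00212) and in GFP IP 9.88-fold (log2 3.30, adjusted p = 0.00182), with an SE of 0.32 for each log2 value.

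Srsf1 encodes the founding SR protein, SF2/ASF, which binds exonic enhancers. It measured 6.24 and 5.67 in V5 IP, 6.15 and 5.83 in GFP IP, with 2.98 and 3.44 in mock IP, and 3.75 and 3.72 in input. The IP arrays again lay above all others without overlap. Srsf1 rose 6.7-fold in V5 IP (log2 2.74, adjusted p = 0.00215) and in GFP IP 6.87-fold (log2 2.78, adjusted p = 0.00195), with an SE of 0.29 for each log2 value.

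Srsf11, which encodes the SR protein p54, had a signal of 5.91 and 5.71 in V5 IP, 5.68 and 5.73 in GFP IP, with 2.35 and 3.60 in mock IP, and 4.54 and 4.76 in input. The 4 IP arrays were close together, and mock 1 lay well below mock 2. Srsf11 rose 7.15-fold in V5 IP (log2 2.84, adjusted p = 0.00404) and in GFP IP 6.65-fold (log2 2.73, adjusted p = 0.00399), with an SE of 0.39 for each log2 value. Within slides the V5 difference was 3.56 and 2.12. The calls of Srsf3, Srsf1 and Srsf11 in both IPs held whichever array was left out.

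Srsf7 (9G8), like Srsf3 a link between splicing and export, measured 5.36 and 4.51 in V5 IP, 5.44 and 4.72 in GFP IP, with 2.92 and 2.95 in mock IP, and 3.60 and 3.69 in input. The slide 1 array stood higher in both IPs, while the mock arrays were nearly equal. It rose 4.00-fold in V5 IP (log2 2.0, adjusted p = 0.00974) and in GFP IP 4.43-fold (log2 2.15, adjusted p = 0.00638), with an SE of 0.35 for each log2 value. Srsf2 (SC35), a marker of nuclear speckles, had a signal of 6.73 and 5.99 in V5 IP, 6.73 and 6.10 in GFP IP, with 4.52 and 4.41 in mock IP, and 4.38 and 4.37 in input, with mock and input arrays close to each other and all IP arrays above them. It rose 3.73-fold in V5 IP (log2 1.90, adjusted p = 0.0088) and in GFP IP 3.88-fold (log2 1.95, adjusted p = 0.00652), with an SE of 0.33 for each log2 value. Without V5 1 the V5 calls of both genes ended (adjusted p = 0.0539 for Srsf7 and 0.0515 for Srsf2), as they did without mock 1 (0.0678 and 0.0583). Their GFP calls held whichever array was left out.

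The SR proteins SRSF4, SRSF5 and SRSF6 are close relatives with a pair of RNA recognition motifs. Srsf6 rose 3.32-fold (V5 IP, adjusted p = 0.0158) and 3.54-fold (GFP IP, 0.0101). Srsf5 rose 2.18-fold (V5 IP, 0.0245) and 2.06-fold (GFP IP, 0.0225). Srsf4 lay at -0.09 in V5 IP (adjusted p = 0.74) and 0.04 in GFP IP (0.883) with an SE of 0.21, and its 8 values ran only between 1.99 and 2.18. Whether these 3 genes differ from each other was not tested.

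The Srsf6 calls ended without V5 1 in V5 IP (adjusted p = 0.0875), without GFP 1 in GFP IP (0.0656) and without mock 1 in both (0.0788 in V5 IP and 0.0543 in GFP IP). Those of Srsf5 ended without mock 1, without either array of the IP concerned and, in V5 IP, without either input array (the highest adjusted p was 0.11 for V5 IP and 0.0878 for GFP IP). Srsf9 (SRp30c), the closest relative of Srsf1, lay 0.69 above mock IP in V5 IP (adjusted p = 0.186) and 0.86 in GFP IP (0.108), with an SE of 0.39. That did not pass, but did with the replicate block (0.0263 in V5 IP, 0.0104 in GFP IP).

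The 7 genes that have left the Sfrs names split in direction. In each IP against mock IP 2 rose, 2 fell and 3 were not called, with a median of -0.75 in V5 IP and -0.80 in GFP IP. Tra2b encodes transformer 2 beta, a splicing activator that binds GAA-rich enhancers. Its signal was 5.90 and 5.25 in V5 IP, 5.82 and 5.43 in GFP IP, with 2.56 and 3.09 in mock IP, and 3.43 and 3.32 in input. The IP arrays lay above all mock and input arrays. Tra2b rose 6.73-fold in V5 IP (log2 2.75, adjusted p = 0.00254) and in GFP IP 6.96-fold (log2 2.80, adjusted p = 0.00205), with an SE of 0.32 for each log2 value.

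Srek1, whose product modulates the activity of SR proteins, rose 3.7-fold (V5 IP, adjusted p = 0.00468) and 3.52-fold (GFP IP, 0.00469). Both calls of Tra2b and of Srek1 held whichever array was left out.

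Clasrp encodes an SR-rich partner of the kinase CLK4, which phosphorylates SR proteins. Its signal was 3.81 and 4.25 in V5 IP, 3.92 and 4.14 in GFP IP, with 5.72 and 4.99 in mock IP, and 4.52 and 4.28 in input. Both mock arrays were the highest, and the IP arrays lay below mock and below input. Clasrp fell 2.51-fold in V5 IP (log2 -1.33, adjusted p = 0.0226) and 2.51-fold in GFP IP (log2 -1.33, adjusted p = 0.0164), with an SE of 0.31 for each log2 value. Sugp2, a gene for a protein with SURP and G-patch domains, measured 0.39 and 0.53 in V5 IP, 0.45 and 0.42 in GFP IP, with 1.46 and 1.05 in mock IP, and 0.65 and 0.56 in input. The mock arrays again lay above all others. Sugp2 fell 1.74-fold in V5 IP (log2 -0.80, adjusted p = 0.0375) and 1.77-fold in GFP IP (log2 -0.82, adjusted p = 0.0286), with an SE of 0.24 for each log2 value.

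These lower calls ended when single arrays were left out. That of Clasrp ended without mock 1 (V5 IP 0.0907, GFP IP 0.0705, adjusted p) or the slide 1 array of the IP (V5 IP 0.111, GFP IP 0.0876), and in V5 IP also without input 1 or input 2 (0.053 each), where its fold does not change and the shared estimate of the spread does. Without mock 1 its difference was -0.96 in each IP. That of Sugp2 in V5 IP held without mock 2 but ended when any of the other 7 arrays was left out (adjusted p of up to 0.159), and in GFP IP it ended without 5 of the 8 (up to 0.121). Its difference lay between -0.87 and -0.59 in V5 IP and between -0.84 and -0.62 in GFP IP where its call ended.

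Scaf4, whose product binds the tail of RNA polymerase II, had a signal of -0.16 and 0.58 in V5 IP, -0.15 and 0.47 in GFP IP, with 0.99 and 0.93 in mock IP, and 0.46 and 0.64 in input. The mock arrays lay above both arrays of each IP. Its differences of -0.75 in V5 IP (adjusted p = 0.106) and -0.80 in GFP IP (0.0828) did not pass (SE 0.33). Scaf11, whose product binds SRSF2, measured 0.75 and 2.05 in V5 IP, 0.62 and 1.78 in GFP IP, with 1.83 and 2.59 in mock IP, and 2.11 and 2.42 in input. The slide 1 array lay below the slide 2 array in every group, and V5 IP overlapped mock IP. It lay at -0.81 in V5 IP (adjusted p = 0.251) and -1.01 in GFP IP (0.159), with an SE of 0.54. Sfswap, homologous to the Drosophila splicing regulator suppressor of white apricot, lay at -0.61 in V5 IP (adjusted p = 0.177) and -0.68 in GFP IP (0.136). With the replicate block, Scaf4 and Scaf11 passed as lower in both IPs (adjusted p between 0.0136 and 0.0342) and Sfswap in GFP IP (0.0342). The block brought the lower calls of the set to 5 in V5 IP, where 38.4% of all genes were lower, and to 6 in GFP IP, where 40.2% were.

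Side by side against mock IP, single hnRNP genes ran between -0.68 and 2.89 in V5 IP and between -0.88 and 2.94 in GFP IP, and SR genes between -1.33 and 3.23 in V5 IP and between -1.33 and 3.30 in GFP IP. Of the 5 SR genes with the lowest values in V5 IP none has an Srsf symbol. Whether hnRNP and SR genes differ was not tested.

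Against input, the same mRNAs are set against total RNA of the lysate. By limma 9 of 19 hnRNP genes and 7 of 16 SR genes were higher in V5 IP than in input, where 14.1% of all genes were. Lower were 2 hnRNP genes and no SR gene, against 13.7% of all genes. In GFP IP 11 hnRNP genes and 8 SR genes were higher, against 16.0%, and 2 hnRNP genes and no SR gene were lower, against 16.8%. The median was 1.0 for hnRNP genes, 1.08 for SR genes and -0.11 for all genes in V5 IP. In GFP IP the hnRNP median was 1.05, the SR median 0.997 and that of all genes -0.11. On slide 1 the hnRNP median was 1.30 for V5 IP and 1.26 for GFP IP, and the SR median 1.20 for V5 IP and 1.03 for GFP IP. On slide 2 the hnRNP median was 0.81 for V5 IP and 0.98 for GFP IP, and the SR median 0.88 for V5 IP and 0.96 for GFP IP.

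Srsf3 rose 5.01-fold over input in V5 IP (adjusted p = 0.00329), and in GFP IP 5.28-fold (0.00265). Hnrnpa0 rose 5.14-fold (V5 IP) and 5.23-fold (GFP IP), and Hnrnpll 4.71-fold (V5 IP) and 4.85-fold (GFP IP). Srsf1 rose 4.65-fold (V5 IP) and 4.77-fold (GFP IP), and Tra2b 4.59-fold (V5 IP) and 4.75-fold (GFP IP). Srsf2 lay 1.99 above input in V5 IP, beside 1.90 above mock IP, and Hnrnpl 1.94 above input, beside 1.44 above mock IP. In GFP IP Srsf2 lay 2.04 and Hnrnpl 2.21 above input. The higher calls of the remaining genes lay between 0.94 (Srek1 in GFP IP) and 1.83 (Hnrnpf in GFP IP). The other probe of Hnrnpf was not called, at 0.99 in V5 IP (adjusted p = 0.168 over all probes) and 1.21 in GFP IP (0.0942). Further probes of Srek1 and Hnrnpdl were not called in either IP, while those of Srsf6 and Srsf7 were called higher in both. Srsf11, called against mock IP, lay 1.16 above input in V5 IP (adjusted p = 0.0624) and 1.06 in GFP IP (0.0743), and did not pass. With the replicate block it passed in both (0.0244 in V5 IP, 0.0321 in GFP IP), as did Srsf9 (0.0035), Hnrnpk (0.011) and Hnrnpr (0.0259) in V5 IP against input.

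Some mRNAs that rose over mock IP were not called against input. Hnrnpd lay at -0.12 in V5 IP (adjusted p = 0.831) and -0.07 in GFP IP (0.899) against input, while its mock arrays lay -1.21 from input (0.0595). Hnrnpc lay at 0.58 in V5 IP and 0.77 in GFP IP, with mock IP at -1.19 from input. Its other probe rose over input by 1.99 in V5 IP (adjusted p = 0.006 over all probes) and by 2.12 in GFP IP (0.0043). For Clasrp, lower than mock IP, V5 IP lay at -0.37 from input (adjusted p = 0.412) and GFP IP at -0.38 (0.398), and mock IP lay 0.95 above input (0.0842). Sugp2 lay at -0.15 (V5 IP) and -0.18 (GFP IP) from input, and mock IP 0.65 above it (0.106).

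By the probe that stands for each gene, the 2 hnRNP genes lower than input were Hnrnpu and Hnrnph3. Further probes of Hnrnpa1 and Hnrnpa2b1, described below, fell as well. Hnrnpu fell by 0.97 on the log2 scale in V5 IP (adjusted p = 0.0163) and by 1.03 in GFP IP (0.0113), and mock IP lay 1.17 below input as well. Its other probe, not called, lay the other way, 0.67 above input in V5 IP (adjusted p = 0.177 over all probes) and 0.50 above it in GFP IP (0.293). Hnrnph3 fell by 1.07 in V5 IP (0.0407) and by 1.28 in GFP IP (0.0199), with mock IP at -0.39 from input. The 4 calls ended without input 1, without input 2 and without the slide 1 array of the IP, with an adjusted p of up to 0.235, and those of Hnrnph3 in V5 IP also without either mock array (0.0571) and of Hnrnpu in V5 IP without V5 2 (0.0554).

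Calls against input rested on both input arrays. The 16 higher calls in V5 IP became fewer without input 1, input 2 or V5 1, and the 19 in GFP IP without input 1, input 2 or GFP 1. The share of all genes called in these fits is not given, so the loss is not shown to be particular to the members. These calls and those named next go by the probe that stands for each gene. Srsf3, Srsf1, Tra2b and Hnrnpll kept their calls in both IPs whichever array was left out, as did Srsf2 in GFP IP. With the replicate block 4 members were lower in V5 IP, where 24.2% of all genes were, and 4 in GFP IP, where 26.8% were. The genes added in both were Sfswap and Scaf11. Without the block, a further probe of Sfswap lay the other way. It was 1.22 above input in V5 IP (adjusted p = 0.0104 over all probes) and 1.33 above it in GFP IP (0.00658). The remaining probes of Sfswap lay below input, and one was called, at -0.93 in GFP IP (0.0364).

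**Figure D3:**
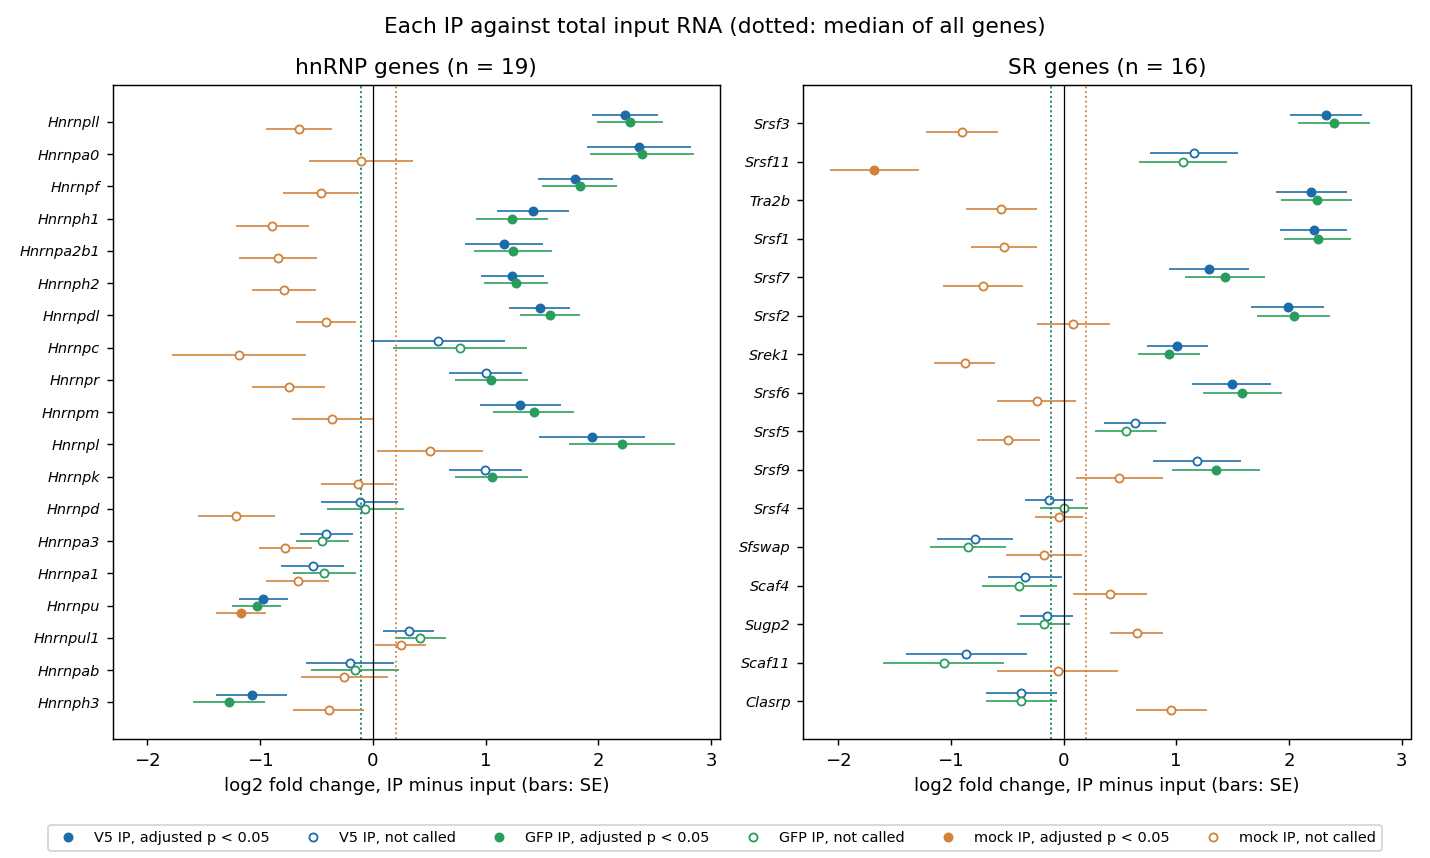
Log2 fold change of each tested hnRNP gene (left) and SR gene (right) in V5 IP (blue), GFP IP (green) and mock IP (orange) against input, with the SE as bars, filled points for calls and dotted lines at the median of all genes (-0.11 for both antibodies, 0.20 for mock IP). For Srsf11 V5 IP (1.16) and GFP IP (1.06) lie above input and mock IP below it (-1.68), while for Hnrnpu V5 IP (-0.97), GFP IP (-1.03) and mock IP (-1.17) all lie below input.

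Mock IP against input gives the background of the procedure. By the probe that stands for each gene, no member was higher, where 6.63% of all genes were. In the same way 1 gene of each family was lower, where 4.03% of all genes were. Further probes called in this comparison are described with the other probes below. The median was -0.66 for hnRNP genes, -0.21 for SR genes and 0.20 for all genes. On slide 1 the median was -0.84 for hnRNP genes, -0.32 for SR genes and 0.32 for all genes, and on slide 2 it was -0.46 for hnRNP genes, -0.09 for SR genes and 0.08 for all genes. Srsf11 fell by 1.68 on the log2 scale in mock IP (adjusted p = 0.0407) and Hnrnpu by 1.17 (0.0277). Within slides Srsf11 lay -2.19 and -1.16 from input and Hnrnpu -1.29 and -1.05. Both calls ended without input 1 (adjusted p = 0.209 for Srsf11 and 0.205 for Hnrnpu), without input 2 (0.214 and 0.191) and without mock 1 (0.101 and 0.0958), and that of Srsf11 also without GFP 1 or GFP 2 (0.0533 each), which enter through the shared estimate of the spread.

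With the replicate block 9 members were lower in mock IP than in input, where 13.3% of all genes were, and 2 were higher, where 21.4% were. The lower ones were Srsf11, Hnrnpu, Srsf3, Srek1, Hnrnpa2b1, Hnrnpc, Hnrnpd, Hnrnpa3 and Hnrnpa1, and the higher ones Clasrp and Sugp2. Without mock 2 more members were called in both directions than in the main fit, and the share of all genes called in that fit is not given.

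V5 IP against GFP IP sets both antibodies to the same fusion protein against each other. No member was called in either direction, and neither was any other gene (0.0% higher and 0.0% lower of 19031 genes by limma). At an unadjusted p under 0.05 there were 0 members and 187 of all genes. The members' differences ran between -0.27 and 0.20 on the log2 scale, smaller in size than each called difference from mock IP, of which that of Sugp2 (-0.80 in V5 IP) was the smallest. The median was -0.05 for hnRNP genes and -0.02 for SR genes.

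Most genes of both families had more than 1 probe on the array, and a gene's probes could read different transcripts. Of the 43 hnRNP probes tested, V5 IP had 23 higher and none lower than mock IP, where 15.3% of all probes were higher and 17.1% lower. Of the 37 SR probes 20 were higher and 4 lower. In GFP IP 25 hnRNP probes were higher and 1 lower, and 18 SR probes were higher and 4 lower, where 17.1% of all probes were higher and 22.5% lower. Of the tested probes, 2 of hnRNP genes (Hnrnpll and Hnrnpr) and 3 of SR genes (Srsf3, Srsf11 and Scaf11) were not well above background on every array, and their differences are not described. Among the others, 13 hnRNP genes had more than 1 probe, of which 5 had probes over 1 log2 unit apart in V5 IP and 6 in GFP IP. Of the 11 such SR genes, 4 had in V5 IP, and 5 had in GFP IP.

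All 4 probes of Srsf2 rose, with log2 fold changes between 1.72 and 1.90 in V5 IP and between 1.84 and 1.98 in GFP IP. The 3 probes of Srsf7 rose by 3.89, 2.24 and 2.0 in V5 IP and by 3.97, 2.31 and 2.15 in GFP IP. Both further probes of Hnrnpk lay above the one that stands for it, at 2.71 and 1.77 in V5 IP against 1.13. The 3 probes of Sugp2 all fell, by 0.80, 0.89 and 0.86 in V5 IP and by 0.82, 1.02 and 0.85 in GFP IP. All 4 probes of Hnrnpa1 lay between -0.02 and 0.13 in V5 IP and between -0.05 and 0.24 in GFP IP, and none passed. Against input they differed. Further probes of Hnrnpa1 fell by 1.51 (adjusted p = 0.00673 over all probes) and 1.30 (0.00996) in V5 IP. In GFP IP the same probes fell by 1.58 (0.00499) and 1.32 (0.00804). The probe that stands for the gene and another, at -0.10 in V5 IP and -0.20 in GFP IP, were not called.

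Other genes had probes that disagreed. For Hnrnpa2b1 the other probe lay at 0.01 in V5 IP, beside 2.0 for the first, and at -0.15 in GFP IP, beside 2.09. Against input, where Hnrnpa2b1 counts as higher, this other probe fell by 1.15 in V5 IP (adjusted p = 0.038 over all probes) and by 1.31 in GFP IP (0.022). For Hnrnpdl the other probes lay at 0.67 and 0.41 in V5 IP and at 0.54 and 0.35 in GFP IP, none called, beside 1.90 in V5 IP and 1.99 in GFP IP for the first. For Tra2b the other probe lay at 1.47 in V5 IP (adjusted p = 0.0926 over all probes) and 0.92 in GFP IP (0.245). A further probe of Srek1 rose by 2.29 in V5 IP (0.0348) but was not called in GFP IP, at 1.08 (0.208). Another of Srek1 rose by 2.47 in V5 IP and 2.38 in GFP IP. A further probe of Srsf11 rose by 1.80 in V5 IP (0.0409) but was not called in GFP IP, at 1.33 (0.0836). The case was turned round for Hnrnpab and Hnrnpa3, whose brightest probes did not pass. For Hnrnpab 2 of 4 probes rose, by 1.99 and 1.91 in V5 IP and by 2.47 and 2.12 in GFP IP, and for Hnrnpa3 2 of 4 rose, by 1.66 and 1.39 in V5 IP and by 1.85 and 1.42 in GFP IP. Against input these genes differed. The same probes of Hnrnpab lay at 1.38 (adjusted p = 0.029 over all probes) and 1.42 (0.0647) in V5 IP. In GFP IP they rose by 1.86 (0.00939) and 1.63 (0.0377). Those of Hnrnpa3 were not called, at 0.42 and -0.02 in V5 IP and at 0.61 and 0.02 in GFP IP. In mock IP against input, further probes of Hnrnpa1 (-1.60 and -1.28), Hnrnpa3 (-1.24 and -1.40), Hnrnpk (-2.05) and Hnrnpll (-1.28) were called lower. So were probes of Hnrnpdl (-0.97), Srsf5 (-1.39) and Srek1 (-2.59). The adjusted p of these probes lay between 0.0233 and 0.0492 over all probes. A further probe of Sfswap was higher (1.40, 0.0269), and the other probe of Hnrnpu lay at -0.28 (0.588). The positions of the probes in their transcripts, and whether a probe also reads a processed pseudogene, were not analysed here.

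**Figure D4:**
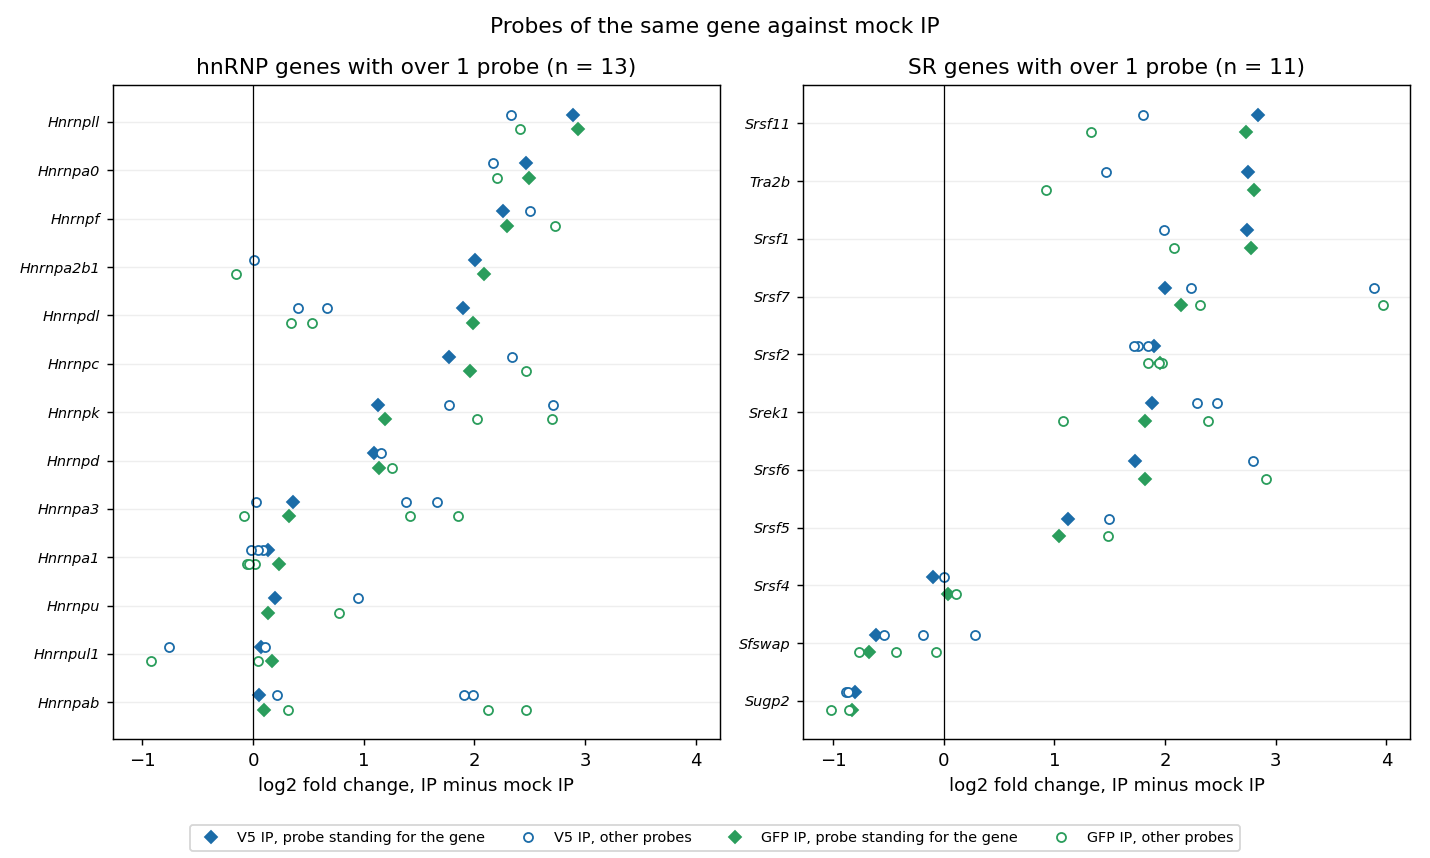
Log2 fold change against mock IP of every probe well above background on all 8 arrays, for the 13 hnRNP genes (left) and 11 SR genes (right) with more than 1 such probe, in V5 IP (blue, upper line of each gene) and GFP IP (green, lower line). Diamonds mark the probe that stands for the gene and open circles its other probes. The 4 probes of Srsf2 lie together, and those of Hnrnpab lie in 2 pairs.

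Lists of other splicing genes were counted in the same fit. Of 21 genes for hnRNP-associated proteins with other names, V5 IP had 11 higher and 2 lower than mock IP, where 14.6% of all genes were higher and 21.4% lower. GFP IP had 12 higher and 2 lower, where 16.3% of all genes were higher and 26.5% lower. Their median lay at 1.28 in V5 IP and at 1.21 in GFP IP. Ptbp2, the polypyrimidine tract binding protein of the nervous system and testis, rose by 2.85 in V5 IP and 2.87 in GFP IP on the log2 scale, and Celf1, which acts in splicing and in decay of GU-rich mRNAs, by 2.77 in V5 IP and 2.91 in GFP IP. Pcbp4 fell by 1.22 in V5 IP and by 1.30 in GFP IP. Ilf2 fell by 0.86 in V5 IP and by 0.81 in GFP IP. Against input the shares of all genes called were 14.1% higher and 13.7% lower in V5 IP, 16.0% higher and 16.8% lower in GFP IP, and 6.63% higher and 4.03% lower in mock IP. Of this list 12 were higher and 4 lower in each IP, and in mock IP 1 was higher and 2 were lower.

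The list of SR-related proteins, SR kinases and import receptors held 19 genes beside Tra2b, which is a member. In each IP against mock IP 6 were higher and 2 lower, where in V5 IP 14.6% of all genes were higher and 21.4% lower, and in GFP IP 16.3% higher and 26.5% lower, with a median of 0.04 in V5 IP and -0.10 in GFP IP. Rnps1, which links splicing to the exon junction complex, rose by 1.74 (V5 IP) and 1.97 (GFP IP), and Luc7l2, of the U1 snRNP, by 1.77 in V5 IP and 1.78 in GFP IP. Srpk1, a cytoplasmic kinase of SR proteins, fell by 0.86 in V5 IP and by 0.90 in GFP IP. Clk1, a nuclear kinase of SR proteins, lay at -0.74 in V5 IP (adjusted p = 0.361) and -1.01 in GFP IP (0.216). Against input, read against the same shares, V5 IP had 5 higher and 5 lower, GFP IP 5 higher and 6 lower, and mock IP 1 higher and 2 lower.

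Of 34 genes for snRNP and core spliceosome proteins, V5 IP had 7 higher and 4 lower than mock IP (14.6% and 21.4% of all genes), and GFP IP 6 higher and 6 lower (16.3% and 26.5% of all genes), with a median of -0.18 in V5 IP and -0.34 in GFP IP. Sf3b1, which binds the branch site as part of the U2 snRNP, rose by 2.12 (V5 IP) and 2.20 (GFP IP), and Snrnp40, of the U5 snRNP, by 1.61 in V5 IP and 1.81 in GFP IP. Prpf31, of the U4/U6 snRNP, fell by 1.15 in V5 IP and by 1.41 in GFP IP. Prpf8, at the centre of the spliceosome, lay at -1.51 in V5 IP (adjusted p = 0.0673) and -1.58 in GFP IP (0.0545). Against input, read against the same shares, V5 IP had 3 higher and 7 lower, GFP IP 2 higher and 11 lower, and mock IP none higher and 2 lower. The differences between these lists and the hnRNP and SR genes were not tested.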

How the data were processed

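Each of the 8 samples was hybridised to 1 Agilent mouse array in Cy3. Per the file headers, Agilent Feature Extraction 9.1.3.1 made the scanner tables, and its processed intensity is background-subtracted and detrended. An alternative used the deposited mean intensity and local background. The series also holds a deposited table of signal values, which per the file headers are background-subtracted and normalized to the median; its deposited quality score served to match 44985 of 45018 entries to 1 spot within 1e-05.

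The deposited processed intensity was put on a log2 scale, and the 75th percentile of 41174 gene probes was subtracted array by array. Outlier spots were left out. Probes had to be well above background on each array of 1 or more groups, which 28103 probes of 19031 genes were, and the kept probe with the highest mean stood for its gene. For a member gene, this was the brightest of its member probes. No member was saturated. Current symbols were taken from RefSeq (GRCm38.p6): 58 of the 84 member probes were named through their accession, 25 through a synonym, and 1 (Sfrs10, now Tra2b) through another probe of the same name.

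One limma model (version 3.58.1, R 4.3.3, moderated by eBayes, two-sided tests) was fitted to the 8 arrays, with Benjamini-Hochberg adjustment over all genes (over all kept probes for single probes) and a call at an adjusted p under 0.05. The fit was tested on simulated data. Arrays with the same number share a slide, and slides were scanned apart; deviations from the group means correlated between 0.299 and 0.778 over 6 pairs of groups, so the number, as slide, was also fitted as a block. Alternatives covered 19 settings. Values on every array are given, in each family, for the 6 highest and 4 lowest genes by the mean log2 fold change of both IPs against mock IP, and from each other list the 2 highest and 2 lowest genes are named. The members, lists and rules were chosen with earlier results of these data known. The number of arrays limits the precision.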

Additional observations from a re-analysis of the deposited data

How the results depend on the processing

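With 2 arrays a group, single arrays and choices of scaling moved the counts of calls. The counts below are of members alone. Outside the replicate block, the shares of all genes called under these settings are not given. The shifts are therefore not shown to be particular to the members. Against mock IP the 2 lower calls in V5 IP became 1 when arrays were centred on the median instead, with the authors' deposited table or with no filter on dim probes, and 0 with normexp or only the groups compared. The 2 in GFP IP became 1 with each of centring, the deposited table, no filter and only the groups compared, and 0 with normexp. With the replicate block, which pairs arrays of the same slide, they became 5 for V5 IP and 6 for GFP IP. Against input, normexp gave 9 higher and 0 lower calls in each IP. The 2 lower calls in V5 IP became 1 with no filter or only the groups compared, and 4 with the replicate block, as in GFP IP. In mock IP against input the 2 lower calls became 4 with quantile normalization or the mean of all probes, 0 with normexp, no filter or only the groups compared, and 9 with the replicate block, which also gave 2 higher calls.

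With 1 array left out, higher calls ran between 11 and 22 in V5 IP and between 14 and 22 in GFP IP against mock IP, between 4 and 17 in V5 IP and between 5 and 19 in GFP IP against input, and between 0 and 2 in mock IP. Lower calls ran between 0 and 2 in V5 IP and between 0 and 3 in GFP IP against mock IP, between 0 and 2 in each IP against input, and between 0 and 5 in mock IP. Of the members, 0 were called in V5 IP against GFP IP under all 19 settings.

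Of the 20 genes with values on every array, 1 called result changed sign: Hnrnpa2b1 in GFP IP against input lay at -0.033 with the mean of all probes. The others that changed sign were not called. With the mean of all probes Scaf11 lay at 0.16 and Hnrnpul1 at -0.20 in V5 IP against mock IP, Hnrnpul1 at -0.23 in GFP IP against mock IP, Hnrnpab, against input, at 0.53 in V5 IP and 0.74 in GFP IP, Srsf11 at -0.090 in GFP IP against input, and Hnrnpa0 at 0.11 in mock IP against input. With quantile normalization Hnrnpul1 lay at -0.028 in V5 IP against mock IP and Srsf2 at -0.12 in mock IP against input. With normexp Hnrnpab lay at 0.045 in V5 IP against input and Scaf11 at 0.10 in mock IP against input. With the deposited table Sugp2 lay at 0.0034 in V5 IP and Hnrnpab at 0.0083 in GFP IP against input. With 1 array left out, Hnrnpab against mock IP ran between -0.37 (without V5 1) and 0.47 in V5 IP and between -0.30 (without GFP 1) and 0.49 in GFP IP, with -0.21 in V5 IP and -0.16 in GFP IP without mock 2. Against input it ran between -0.63 and 0.22 (without V5 2) in V5 IP, between -0.55 and 0.24 (without GFP 2) in GFP IP, and between -0.51 and 0.0042 (without mock 2) in mock IP. Scaf4 in V5 IP against input ran between -0.71 and 0.030 (without V5 1). In mock IP against input Scaf11 ran between -0.43 and 0.33 (without mock 1), with 0.10 without input 2, and Hnrnpa0 reached 0.16 without mock 2. The cause was not tested. Of 56 called results of these genes, 32 lost their call under at least 1 of the 19 settings, and of 44 not called, 16 gained one.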
